A study of Homo sapiens with 7 samples.

Results

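The immunoglobulin heavy chain locus was examined in 6 ChIP-seq peak lists from OCI-Ly7, an established human lymphoma line of the diffuse large B-cell type. Its members were all peaks that overlapped chr14:105550000-106880000 (hg38) or lay on KI270846v1, an alternate assembly contig of chromosome 14. They numbered 1350 of 335430 peaks in the 6 lists together, of which 678 lay in the window and 672 on the contig. The study used suspension cultures of this line, with no treatment given in the labels, and made 1 ChIP library each against MED1, CREBBP, EP300, OCA-B, OCT2 and OCT1, and 1 input library as their common control. There were therefore no replicates, and no difference below could be tested against a spread between samples. After the caller's filter the ChIP libraries ranged between 12357450 tags (CREBBP) and 27885791 tags (EP300), and the input had 37517450.

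The heavy chain locus holds the constant genes at one end and the V segments at the other, with the D and J segments between them. Its genes are read towards lower coordinates, so the 3' end of the locus has the lowest positions. B cells join a V, a D and a J segment into 1 exon, and later exchange the constant gene by recombination between switch regions, which are long repeats ahead of the constant genes. Transcription is driven by V promoters, which carry an octamer motif bound by OCT1 and OCT2, by the intronic enhancer between J and IGHM, and by 3' regulatory regions behind IGHA1 and IGHA2, each a row of enhancers. OCA-B is a B-cell coactivator that joins OCT1 or OCT2 on the octamer. MED1 belongs to Mediator, which links enhancer-bound factors to RNA polymerase. CREBBP and its relative EP300 acetylate histones at active enhancers.

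The switch repeats can be seen in the RefSeq sequences of 4 microRNA hairpins annotated between IGHM and the J segments (GRCh38.p14, minus strand, written 5′ to 3′). They are shown because OCT1 alone had peaks over their span, with folds of 4.24 and 4.88. The enhancer stretch on their J side held some of the strongest peaks of the locus. Capitals mark the pentamers GAGCU and GGGCU, searched on the RNA strand only. The hairpins lie at chr14:105857513-105857572, chr14:105858124-105858175, chr14:105858165-105858242 and chr14:105859484-105859553, in the order printed.
MIR4539: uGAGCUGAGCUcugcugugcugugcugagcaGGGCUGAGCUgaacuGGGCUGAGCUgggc
MIR4507: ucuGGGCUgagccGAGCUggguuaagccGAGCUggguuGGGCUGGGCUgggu
MIR4538: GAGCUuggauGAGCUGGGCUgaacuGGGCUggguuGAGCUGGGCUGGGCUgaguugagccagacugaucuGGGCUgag
MIR4537: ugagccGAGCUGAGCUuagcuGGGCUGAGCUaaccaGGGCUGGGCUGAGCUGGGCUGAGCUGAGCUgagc
These hairpins hold 6, 5, 8 and 10 pentamers. In the whole table, 5 of 1562 hairpins (0.320%) hold 4 or more of them.

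A further sequence was chosen because the widest peak of the window covers it. It is the start of the non-coding gene LOC105370700, 250 bases before its first base and 50 from it on (RefSeq, GRCh38.p14, plus strand, chr14:106196442-106196741, first base of the gene in capitals). Its last bases fall inside the V pseudogene IGHV3-19 (chr14:106196698-106196990), which begins 6 bp from the first base of LOC105370700.
LOC105370700: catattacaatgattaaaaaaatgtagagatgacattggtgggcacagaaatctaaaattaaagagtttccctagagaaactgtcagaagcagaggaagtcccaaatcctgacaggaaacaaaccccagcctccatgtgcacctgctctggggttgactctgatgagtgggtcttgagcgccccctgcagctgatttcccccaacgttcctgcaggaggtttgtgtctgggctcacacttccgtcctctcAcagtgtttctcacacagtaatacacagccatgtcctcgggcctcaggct
The octamer ATGCAAAT, searched on both strands, was in neither this sequence nor the other 7 promoters of the window that the table holds. It was in 623 of 35116 promoters (1.77%) of the whole table. Promoters of V segments were not analysed here.

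Fold below is the enrichment at a peak's summit over the control, and this and the other peak values are those of the authors' peak caller. Folds of different lists stand side by side to describe a site and do not rank the factors, because depth, antibody and duplicate handling differ between the libraries. OCA-B had 128 peaks in the window and 131 on the contig. OCT2 had 113 in the window and 112 on the contig. OCT1 had 60 in each. MED1 had 114 and 117, CREBBP 107 and 111, and EP300 156 and 141, window before contig. Where peaks of different lists overlapped by at least 1 bp they were joined, which gave 343 regions, 170 in the window and 173 on the contig. Of these, 59 (17.2%, 95% Wilson interval 13.6 to 21.6) held peaks of all 6 lists, against 9.39% of the 115926 regions of the whole series. In the window alone the share was 17.1%. At the other extreme 135 regions (39.4%, interval 34.3 to 44.6) came from a single list, against 47.0% of the regions of the series. EP300 alone held 42 (31.1%) of these 135, against 47.2% of the single-list regions of the series, and MED1 alone held 41 (30.4%), against 4.92%. OCA-B had 15.6% against 7.67%, OCT2 12.6% against 27.0%, OCT1 7.41% against 9.62% and CREBBP 2.96% against 3.57%, locus before series. Intervals here cover counting error only, and the peaks of 1 library are not replicates. The contig is a second assembly copy of the DNA of the window, so locus counts over both can hold a site more than once. The intervals of such counts are therefore too narrow.

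**Figure D1:**
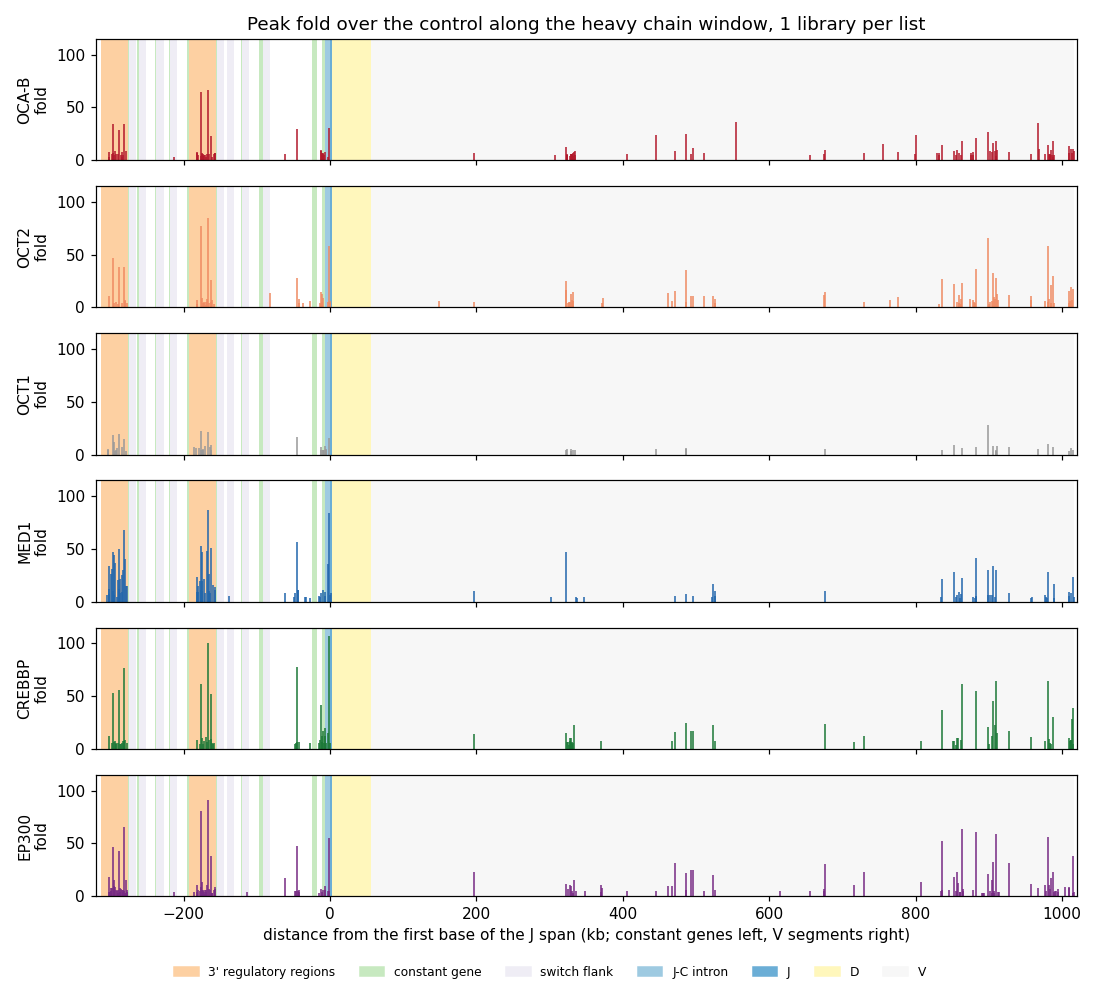
Each vertical line is a peak at its summit, with fold over the control (y axis) against distance in kb from the J span (x axis), 1 panel per list and 1 library per list; shading marks the stretches named in the legend. Strong peaks stand in the 3' regulatory regions, beside J and in the far V part, and none stand over the D segments.

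Peaks with a fold of 10 or more, called strong here, were more frequent at the locus than in the whole list for MED1 above all. MED1 had 111 strong peaks of 231 at the locus (48.1%, interval 41.7 to 54.5), against 15.6% in its whole list. The share was 41.3% (35.0 to 47.9) for CREBBP at the locus, against 30.4% in its list. For OCT2 it was 33.8% (27.9 to 40.2), against 23.5%. For EP300 it was 30.0% (25.0 to 35.4), against 23.8%. OCA-B had 23.2% (18.4 to 28.7) at the locus, against 18.2%, and OCT1 16.7% (11.1 to 24.3), against 15.0%, a value inside its interval. Of the 100 strongest MED1 peaks by fold, 19 were members of the locus, whereas the other lists had 0 (OCT1) to 6 (EP300) among their own 100. These counts pool the window and its contig copy.

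**Figure D2:**
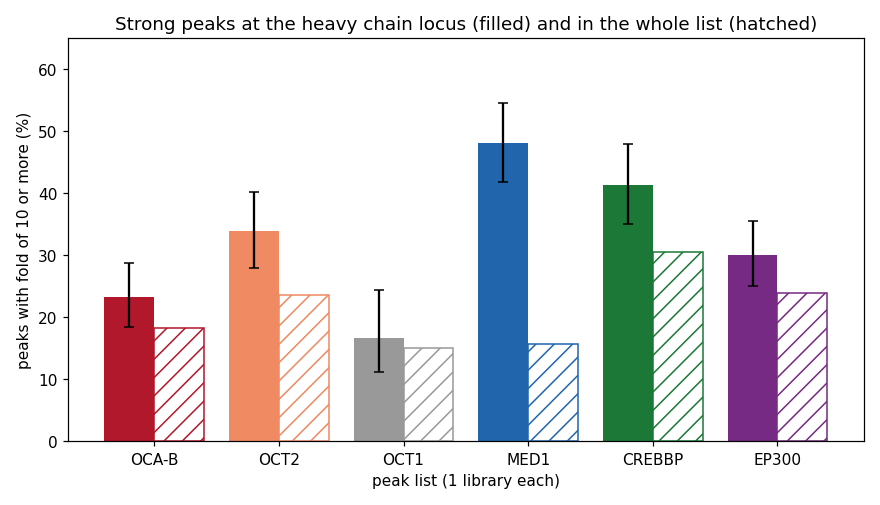
Bars give the share of peaks with a fold of 10 or more (y axis, %) for each list (x axis), at the heavy chain locus (filled, left, with the 95% Wilson interval) and in the whole list (hatched, right). MED1 has the widest distance between its bars, 48.1% at the locus and 15.6% in the list.

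The members lay on a low control background. The control level at a summit, recovered from pileup and fold, had a median of 1.37 (MED1) to 1.70 (OCT1) times the genome mean at the locus, against 2.17 (EP300) to 2.63 (CREBBP) times over the whole lists. Its part in the folds was not tested. With 1 tag kept per position and strand, a pileup cannot pass 2 times the fragment length. The highest pileups of the locus were 345 of a possible 348 for MED1, 324 of 328 for CREBBP and 300 of 304 for EP300, so the strongest peaks of these lists stood close to that limit. OCA-B reached 175 of 296, OCT2 235 of 290 and OCT1 130 of 338.

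The 3' regulatory regions were the most densely occupied long stretches of the locus. They held 50 of the 170 window regions in 37.1 kb behind IGHA1 and 36.9 kb behind IGHA2. MED1 peaks covered 44.1% of their length, against 0.917% of the genome size the caller used. EP300 covered 33.1%, CREBBP 19.9%, OCA-B 18.0%, OCT1 13.6% and OCT2 10.5% of the 3' regulatory regions. The same lists covered 1.76%, 0.796%, 0.840%, 0.352% and 1.16% of the genome. MED1 peaks were in 41 of the 50 regions, EP300 in 38, OCA-B in 28, CREBBP in 25, OCT1 in 21 and OCT2 in 20.

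**Figure D3:**
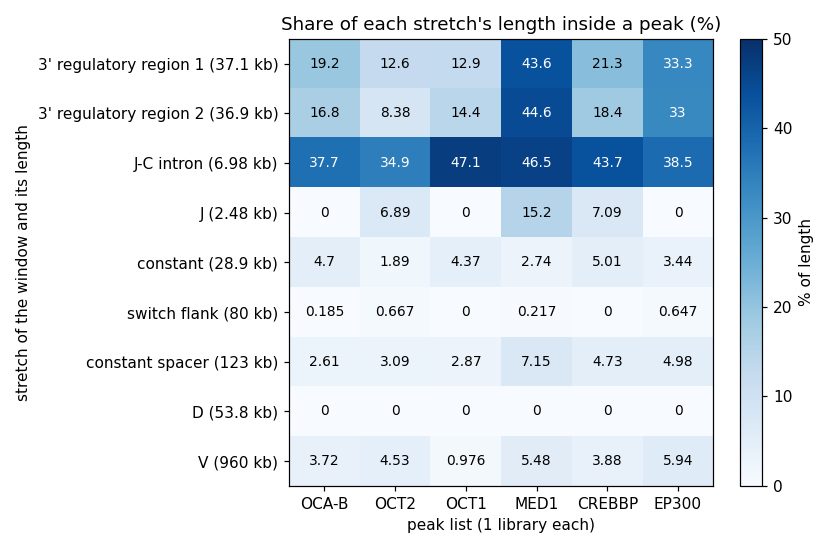
Numbers and shading give the percentage of each stretch's length (rows, with the length in kb) inside a peak of each list (columns), with a peak counted whole where its summit lies. MED1 reaches 43.6% and 44.6% behind IGHA1 and IGHA2, and all 6 lists exceed 34% in the J-C intron, while the D row is at 0.

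Behind IGHA1, 3 regions held strong peaks of OCA-B and peaks of the other 5 lists. The farthest lay 20.9 kb 3' of the gene (chr14:105685825-105686690), with folds of 52.9 for MED1, 61.7 for CREBBP, 80.5 for EP300, 64.3 for OCA-B, 22.3 for OCT1 and 77.1 for OCT2. It ranked 8 in the OCA-B list and 6 in the OCT2 list. The next lay 10.6 kb 3' (chr14:105696134-105696958) and ranked 2 in the OCT2, MED1 and EP300 lists, 7 in OCA-B, 12 in CREBBP and 647 in OCT1. The nearest lay 6.04 kb 3' (chr14:105700244-105702962), with folds of 50.7 for MED1, 51.9 for CREBBP, 38.4 for EP300, 22.8 for OCA-B, 9.37 for OCT1 and 26.1 for OCT2. In these 3 regions the highest summits of the 6 lists fell within 48, 34 and 43 bp of each other, in the same order.

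Behind IGHA2 the same kind of trio was found. The farthest region lay 20.5 kb 3' (chr14:105565961-105566773), with folds of 47.3 for MED1, 53.3 for CREBBP, 46.9 for EP300, 34.1 for OCA-B, 18.9 for OCT1 and 46.9 for OCT2. The second lay 11.7 kb 3' (chr14:105575053-105575734), with folds of 50.4, 56.3, 42.9, 28.6, 19.8 and 38.6 in that order of lists. The third lay 4.74 kb 3' (chr14:105581953-105583121), with folds of 68.3, 76.3, 65.9, 34.5, 15.0 and 38.0. Summits spanned 58, 21 and 46 bp. In the window the folds of all 6 lists were thus lower behind IGHA2 than behind IGHA1 in the far and middle regions, and higher behind IGHA2 in the region nearest the gene. The order of the far and middle regions turned on the contig copy described at the end, where the folds of all 6 lists were higher on the IGHA2 side in all 3 regions. For OCA-B the contig folds were 53.1 on the IGHA2 side and 37.2 on the IGHA1 side in the far region, and 30.8 and 28.0 in the middle one. Pileups in the window did not all follow the folds. In the far region they were higher behind IGHA2 for OCT2 (212, against 204 behind IGHA1), MED1 (186, 182) and OCT1 (97, 88). They were lower for OCA-B (160, 166), CREBBP (140, 142) and EP300 (255, 256). In the middle region MED1 (223, 214) and OCT1 (102, 84) were higher behind IGHA2 and the other lists lower. The part of the control level in these folds was not tested.

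Over the 3' regulatory regions as a whole, these 6 sites included, MED1 was mostly strong and the others mostly weak. Of the 45 MED1 peaks in both 3' regulatory regions, 34 (75.6%) had a fold of 10 or more and the median fold was 19.4, against 5.25 over the MED1 list. The corresponding counts were 6 of 37 for OCA-B, 7 of 27 for OCT2, 6 of 24 for OCT1, 9 of 32 for CREBBP and 12 of 56 for EP300. The 6 strong OCA-B peaks were those of the 6 sites, so OCA-B had no strong peak between them. The median folds of these 5 lists ran from 5.55 (OCT2) to 7.44 (CREBBP), against list medians of 5.45 (EP300) to 6.60 (CREBBP). The region chr14:105693120-105695914, beside the strongest one behind IGHA1, had a MED1 fold of 48.5, while OCA-B had 5.43, OCT2 7.94, CREBBP 11.0, EP300 10.6 and OCT1 no peak. The region chr14:105562616-105564559 behind IGHA2 had a MED1 fold of 26.5 and an EP300 fold of 7.39, with no peak of the other 4 lists. Summits of the other 4 regions in all 6 lists were spread over 670 to 1692 bp, far wider than in the 6 sites above.

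**Figure D4:**
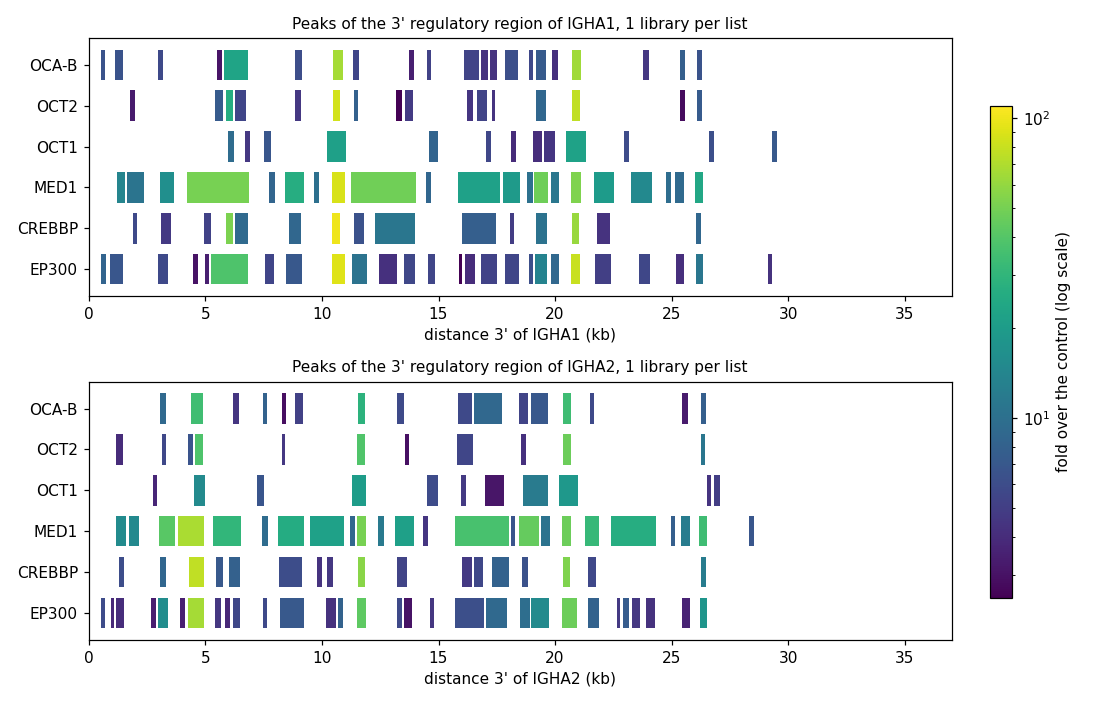
Bars are peaks drawn to their width against distance 3' of IGHA1 (upper) and IGHA2 (lower) in kb, 1 row per list, coloured by fold over the control on a log scale. The bright columns at 20.9, 10.6 and 6.04 kb behind IGHA1 and at 20.5, 11.7 and 4.74 kb behind IGHA2 run through all 6 lists, and MED1 fills much of the space between them.

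IGHM aside, no peak summit lay inside a constant gene. The stretch from the end of the IGHA2 regulatory region to chr14:105650023 was without any peak for 63.6 kb and includes IGHA2, IGHE, IGHG4 and IGHG2. IGHG1, IGHG3 and the pseudogene IGHGP also lay in peak-free stretches of 24.3, 30.8 and 27.3 kb. Lengths like these last ones are of the order of the mean spacing in the series, with 115926 regions on a genome size of 2700000000 bp. All 18 peaks with a summit inside a constant gene lay in IGHM, the gene nearest J. With them, the constant genes together were covered above the genome share in every list. The shares ran from 1.89% for OCT2, against 1.16%, to 5.01% for CREBBP, against 0.796%. The region chr14:105853080-105854076 inside it held all 6 lists, with folds of 11.4 for MED1, 16.6 for CREBBP, 5.68 for EP300, 6.44 for OCA-B, 4.57 for OCT1 and 9.36 for OCT2. The region chr14:105854309-105854670 held OCT1 alone, at 4.15, and chr14:105855063-105855255 held OCA-B at 4.77 and CREBBP at 5.61. At the J end of IGHM the region chr14:105855315-105857362 runs on into the intron, and its summits inside the gene had folds of 12.6 for CREBBP, 8.12 for OCA-B, 6.23 for EP300 and 5.94 for MED1. The 3' end of IGHM lay under chr14:105849919-105852913, where CREBBP had a fold of 41.7, OCT2 14.3, OCA-B 9.30, MED1 8.46, EP300 7.14 and OCT1 6.98, all with summits 3' of the gene. The summits of that region inside IGHM reached 6.93 for OCA-B, 6.51 for CREBBP and 4.33 for EP300.

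A separate strong site stood between IGHG3 and IGHD, 19.5 kb from IGHD, at chr14:105816420-105818922. It held all 6 lists, with folds of 56.3 for MED1, 77.7 for CREBBP, 47.2 for EP300, 29.6 for OCA-B, 17.1 for OCT1 and 28.3 for OCT2. It ranked 29 in the MED1 list and 100 in the CREBBP list, and its highest summits spanned 156 bp. No gene is annotated there in the table used.

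The switch regions of the downstream constant genes lie in the 10 kb on their J side. These flanks, with that of the pseudogene IGHEP1 counted among them, held 5 peaks in 4 regions over 80 kb. The series has 115926 regions on a genome size of 2700000000 bp, so this number of regions is close to its mean density. The covered length was below the genome share, as for OCT2 (0.668%, against 1.16%) and EP300 (0.648%, against 1.76%). OCA-B at 3.20 and EP300 at 4.28 shared a region beside IGHG2. MED1 had 5.48 beside IGHEP1, EP300 had 4.28 beside IGHG1, and OCT2 had 13.4 beside IGHG3, each alone. CREBBP and OCT1 had none. The mu switch repeats, shown above by their hairpins, lie between IGHM and the intronic enhancer. Over the span of the 4 hairpins OCT1 had the only peaks, with folds of 4.24 (chr14:105857607-105857782) and 4.88 (chr14:105857843-105858175), and the second of these covers MIR4507 and part of MIR4538. Tags were 51 bp long, and how tags from such repeats were placed is not given in the sources used here.

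The intronic enhancer stretch had the strongest CREBBP peak of the locus. At chr14:105861483-105863465, which reaches IGHJ6, the fold was 107 for CREBBP, 84.3 for MED1, 57.8 for OCT2, 55.2 for EP300, 30.7 for OCA-B and 15.8 for OCT1. It ranked 3 in the MED1 list, 8 in CREBBP, 75 in OCT2, 187 in EP300 and 357 in OCA-B. The highest summits of the 6 lists fell within 85 bp. Its neighbour towards IGHM, chr14:105860334-105861376, had folds of 35.5 for MED1 and 15.4 for CREBBP, but 5.24 for OCT2, 4.91 for EP300 and 3.21 for OCA-B, and no OCT1 peak. At the IGHM side of the intron, the summits of chr14:105855315-105857362 outside the gene had folds of 20.1 for CREBBP, 9.69 for MED1, 9.28 for EP300 and 8.30 for OCT1, and OCT2 had no peak in that region.

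The J segments carried 2 weak regions of MED1 alone, with folds of 6.13 at IGHJ5 and 8.22 at IGHJ4. OCT2 and CREBBP each had 1 further summit in the J span, at folds of 6.05 and 6.04, in the region that reaches IGHJ6. From there on the locus was empty for 148 kb, up to chr14:106012378. This gap spans IGHJ3 to IGHJ1, all 27 D segments, IGHV6-1, IGHV1-2, IGHV1-3 and IGHV4-4 and the genes FAM30A and ADAM6, with no peak in any list. It ended just ahead of the leader of IGHV4-4, where OCT2 had a fold of 5.94. On the contig the longest gap was also 148 kb. The next longest gaps were 104.8, 63.1 and 58.3 kb on the contig and 104.9, 63.6 and 59.6 kb in the window.

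The V part held 93 regions in 960 kb, 15 of them in all 6 lists and 43 in 1 list. A peak of any list lay within 1 kb of 24 of the 48 V genes and of 20 of the 79 V pseudogenes. OCT2 was near 20 V genes, EP300 near 19, OCA-B near 16, MED1 and CREBBP near 13 each, and OCT1 near 6. Among the pseudogenes OCA-B and EP300 were near 15 each, OCT2 and CREBBP near 8 each, and MED1 and OCT1 near 6 each. IGHV4 genes were the family most often near OCT2, in 6 of 7, all but IGHV4-39, whereas MED1, CREBBP and OCT1 were each near 1 of the 7. Of the 22 IGHV3 genes, EP300 was near 9, OCT2 near 7, OCA-B and MED1 near 6 each, CREBBP near 5 and OCT1 near 1.

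The families differed in where the summits lay. In the IGHV1 and IGHV4 genes 28 of 44 summits within 1 kb fell in the 250 bp ahead of the leader end, on the promoter side, and 4 of 44 fell in the 250 bp behind the end nearest J. In the IGHV3 genes the counts were 4 of 38 ahead of the leader and 29 of 38 behind the end nearest J, where the recombination signal lies. The 6 lists are pooled here, and the 44 summits came from 10 genes and the 38 from 10, so they are not independent. By gene, 10 IGHV1 and IGHV4 genes had a summit ahead of the leader and 3 behind the end nearest J. For IGHV3 genes the numbers were 2 and 10. For OCT2, 10 of 13 summits at IGHV1 and IGHV4 genes lay 1 to 148 bp ahead of the leader, and 4 of 9 at IGHV3 genes lay 176 to 229 bp behind the other end. In the 250 bp ahead of the leader of IGHV1 and IGHV4 genes, OCA-B had 6 of 8 summits and OCT1 4 of 5. CREBBP had only 3 of 6 of its summits in that band, EP300 3 of 7 and MED1 2 of 5. For EP300, 9 of 10 summits at IGHV3 genes lay 128 to 235 bp behind the end nearest J. CREBBP had 5 of 5 there, MED1 5 of 7 and OCA-B 5 of 6. IGHV3-21 and IGHV3-48 were exceptions with OCT2 summits 97 and 127 bp ahead of the leader. No test was run, since segments of a family share sequence, and IGHV3-30 with IGHV3-33, IGHV1-69 with IGHV1-69D and IGHV2-70 with IGHV2-70D are near-copies whose tags cannot be told apart with confidence.

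**Figure D5:**
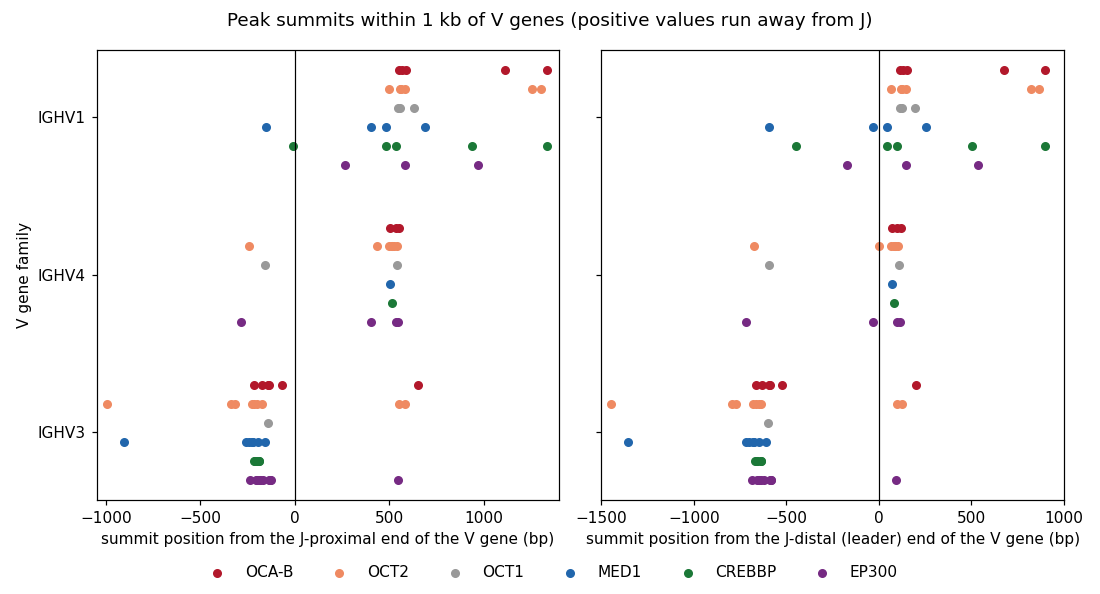
Points are peak summits within 1 kb of IGHV1, IGHV4 and IGHV3 genes (rows), coloured by list, against position in bp from the end nearest J (left) and from the leader end (right), with positive values running away from J. Points of IGHV1 and IGHV4 gather just right of the leader end, less so for CREBBP, EP300 and MED1, and those of IGHV3 gather 67 to 245 bp left of the end nearest J.

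Folds at single genes of these families are given as examples. IGHV4-30-2 (chr14:106349291-106350107) had an OCT2 fold of 35.4, OCA-B 25.2, CREBBP 24.5, EP300 21.9, MED1 7.27 and OCT1 6.43, with summits within 39 bp. IGHV3-72 (chr14:106790154-106790820) had an EP300 fold of 31.5, CREBBP 16.6, OCT2 11.4, MED1 8.32, OCA-B 7.96 and OCT1 6.74. IGHV3-30 (chr14:106334416-106335143) had 31.2 for EP300, 16.2 for CREBBP, 15.2 for OCT2, 8.82 for OCA-B and 5.27 for MED1, and no OCT1 peak. IGHV1-69D (chr14:106761838-106763264) had the highest OCT2 fold of the V part, 65.8, with the highest OCT1 fold of the window, 28.5, beside 29.9 for MED1, 26.5 for OCA-B, 21.4 for EP300 and 21.2 for CREBBP. Its near-copy IGHV1-69 (chr14:106714362-106715761) had 28.3 for MED1, 22.6 for OCT2, 17.8 for EP300, 8.72 for OCT1, 8.38 for OCA-B and 7.43 for CREBBP.

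IGHV1-18 lay under the widest peak of the window. A single MED1 peak of 14039 bp with a fold of 47.2 (chr14:106184985-106199023) ran from IGHV1-18 to the start of LOC105370700 and the pseudogene IGHV3-19. Within it OCA-B had 16 peaks, OCT2 9, OCT1 6, CREBBP 12 and EP300 8. At the IGHV1-18 end OCT2 reached 25.0, CREBBP 15.4, OCA-B 12.3 and EP300 11.3. Peaks overlapping the LOC105370700 stretch printed above had folds of 23.1 for CREBBP, 15.7 for EP300, 14.4 for OCT2 and 8.12 for OCA-B, and OCT1 had none. The CREBBP and EP300 summits (chr14:106196583 and chr14:106196609) also lay on the J side of IGHV3-19. Whether these peaks belong to the gene start or to the pseudogene cannot be told apart. The contig held a similar region of 14164 bp, with a MED1 fold of 61.7. Its MED1 peak of 14093 bp was the 10th widest of the MED1 list.

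The far end of the V part was the most occupied. Of the 15 V regions in all 6 lists, 12 lay from chr14:106697832 on. Folds of both CREBBP and EP300 passed 50 at several, among them chr14:106724050-106726799 beside IGHV2-70D (61.4 and 64.1), chr14:106771183-106775295 at the pseudogene IGHV3-71 (64.2 and 59.4) and chr14:106744400-106746014, 6.85 kb from IGHV1-69-2 (55.3 and 60.7). MED1 had folds of 22.9, 30.3 and 41.6 in these 3 regions, and OCA-B had 18.1, 17.9 and 21.2. At chr14:106842832-106844641, 1.17 kb from the non-coding gene LOC124903399, the folds were 64.2 for CREBBP, 58.0 for OCT2, 55.9 for EP300, 28.6 for MED1, 14.9 for OCA-B and 10.2 for OCT1.

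OCA-B had a set of strong V peaks without OCT2, which were picked out after their values were seen. Of its 60 strong peaks at the locus 12 (95% interval 11.8% to 31.8%) overlapped no OCT2 peak, against 4.13% of the 10463 strong OCA-B peaks of the whole list. The 60 pool the window and its contig copy, so the interval is too narrow. Without the contig the share was 20.7%. All 8 strong OCA-B peaks of the window outside the V part had OCT2, and 6 of the 21 in the V part did not. The strongest lay at chr14:106417486-106418067 over the pseudogene IGHVIII-38-1, with a fold of 35.8 and no peak of any other list. The next, at chr14:106830489-106831132, 631 bp from IGHVIII-76-1, had a fold of 35.0, with OCT1 at 5.31 and EP300 at 8.05. By order and spacing, the likely contig copy of the IGHVIII-76-1 site is 1321635-1322316. There OCA-B had 21.2, and OCT2 did have a peak, at 3.57, beside CREBBP at 5.62, EP300 at 8.36 and OCT1 at 4.50. The likely contig copy of the IGHVIII-38-1 site, 909170-909666, had OCA-B at 32.1 and OCT1 at 5.95, and no OCT2. In the window a fold of 23.9 was found both at chr14:106663759-106664373, 1665 bp from the pseudogene IGHV3-65, and at chr14:106308796-106309370, 36 bp from IGHVIII-26-1. The other two had folds of 15.8 at chr14:106618466-106618731, 178 bp from the pseudogene IGHV3-57, and 11.0 at chr14:106831314-106831876 over IGHVIII-76-1. Of the 6, 4 thus lay within 1 kb of a pseudogene with the IGHVIII prefix and 2 did not. Of 9 OCA-B peaks within 1 kb of a pseudogene with the IGHVIII prefix, 9 overlapped no OCT2 peak, against 10 of the other 69 OCA-B peaks of the V part. The IGHVIII grouping was taken from the strong peaks without OCT2, and 4 of the 9 are those same peaks. The contrast is therefore partly fixed by that choice and gives no independent support for a link. Counted by pseudogene, 7 of the 17 had OCA-B within 1 kb and 1 of the 17 had OCT2.

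Across the whole locus the OCA-B peaks met the other lists to differing degrees. OCT2 was overlapped by 69.1% (63.2 to 74.4) of the 259 OCA-B peaks, against 78.0% of the OCA-B list. MED1 was overlapped by 78.0% (72.6 to 82.6), against 61.6%, CREBBP by 69.5% (63.6 to 74.8), against 60.0%, and OCT1 by 39.0% (33.3 to 45.1), against 31.4%. EP300 was overlapped by 84.2% (79.2 to 88.1), against 81.4%. With the requirement of summits within 250 bp the shares came to 51.4% at the locus and 51.8% in the list for MED1, and to 63.3% and 67.0% for EP300, so that neither was above its list. For CREBBP they came to 54.1% at the locus and 53.6% in the list, which lie close together. The share for OCT2 stayed below its list, at 54.1% and 70.5%.

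The contig repeated the order of the window. No gene annotation of the contig was used here. From the IGHA2 side to J, 8 regions of the window held all 6 lists with a strong OCA-B peak, and the first 8 such regions of the contig had matching spacing. The last of them lay 296.5 kb from the first on the contig and 295.7 kb in the window. The contig is a second assembly copy of this DNA, so its peaks are not independent of those of the window. Folds were lower on the contig in 31 of 48 pairs and higher in 17. All 6 lists were lower on the contig in the far and middle regions behind IGHA1, in the site between IGHG3 and IGHD and at the intronic enhancer. The pair of the region 10.6 kb behind IGHA1 differed most plainly in fold. It had folds on the contig of 40.0 for MED1, 45.2 for CREBBP, 38.0 for EP300, 28.0 for OCA-B, 19.0 for OCT1 and 33.7 for OCT2. In the window these were 87.3, 100.3, 91.1, 66.5, 21.3 and 84.8. The pileups of this pair lay closer together than its folds for all lists but OCT1. On the contig they were 216 for MED1, 178 for CREBBP, 263 for EP300, 146 for OCA-B, 109 for OCT1 and 192 for OCT2. In the window they were 214, 192, 266, 155, 84 and 208 in the same order. The part of the control level in the fold differences was not tested. In 3 regions the folds of 5 of the 6 lists were higher on the contig. These were the far region behind IGHA2, for all lists but CREBBP, the middle region behind IGHA2, for all but MED1, and the region nearest IGHA1, for all but OCT1. In the far region behind IGHA2, OCA-B had 53.1 on the contig and 34.1 in the window, and OCT1 28.8 and 18.9. In the region nearest IGHA1, MED1 had 65.9 on the contig and 50.7 in the window. In the region nearest IGHA2 OCT2 and OCT1 were higher on the contig and the other 4 lists lower. How tags that fit both copies were placed is not given in the sources used here.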

How the data were processed

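The submitters' processing notes name MACS2 2.1.1.20160309, SAMtools 1.3.1, Bowtie2 2.3.2.2 and CASAVA 1.8.2 with the build hg38. Per the file headers, each ChIP library was called alone against 1 input, with 51 bp tags, a q threshold of 0.05 and 1 tag kept per position. The deposited lists hold start, end, width and summit, fold enrichment, pileup signal, and −log10 values of p and q. The ChIP libraries held 12357450 to 27885791 tags after filtering, and the input 37517450.

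From these, peaks of the locus were selected with Python 3.11.15 scripts (NumPy 2.4.6, pandas 2.3.3, SciPy 1.17.1), which were tested on simulated intervals. A peak was put in a stretch by its summit, and a joined region by the summit of its peak with the highest fold. Gene positions are those of the RefSeq table of GRCh38.p14, which gives no strand or exons. The 3' regulatory regions ran from the window's edge to IGHA2 and from IGHGP to IGHA1. Switch flanks were 10 kb on the J side of a constant gene or pseudogene other than IGHD, IGHM and IGHGP. The control level at a summit is (pileup + 1)/fold − 1, divided by the genome mean. With 1 library per factor nothing was tested, and shares carry 95% Wilson intervals. Members and lists were chosen with earlier results of these data known. Regions named are those of the 3' regulatory regions, J and the J-C intron that a result turns on, the strongest elsewhere, and V segments in all 6 lists. The octamer search in V promoters was not run, since those sequences were not in the table used. Alternatives were a stricter q, peak midpoints, a 5 kb switch flank, shortened lists, other overlaps and distances and a fold of 20.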

Additional observations from a re-analysis of the deposited data

How the results depend on the processing

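Of 85 recomputed values, 57 stayed within their interval or within 1.5 times the main count. No replicate could be left out. The octamer search with 1 mismatch in V promoters was not run. No paired analysis was possible because each factor had 1 library. Joining peaks within 500 bp raised the share of regions in all 6 lists to 25.0% (13.4% in the series). With summits within 250 bp the shares of OCA-B peaks meeting OCT2 and OCT1 were 54.1% and 30.9%, against 70.5% and 27.9% in the list. The shares meeting MED1, CREBBP and EP300 were 51.4%, 54.1% and 63.3%. Those for MED1 and EP300 thereby turned from above to below their lists (51.8% and 67.0%), and CREBBP came close to its list (53.6%). With 50% of the OCA-B peak required, OCT2, OCT1 and CREBBP had 62.9%, 22.0% and 63.3%, against 72.2%, 18% and 53.3% in the list. With lists shortened to 24513 peaks, OCT2, OCT1 and CREBBP had 61.5%, 64.2% and 76.1%, against 70.5%, 57.7% and 67.4% in the list. EP300 then had 63.3%, also below its list (67.5%). At a fold of 20 the strong share was 26.8% for MED1, 20.6% for CREBBP, 17.5% for EP300, 10.4% for OCA-B, 4.17% for OCT1 and 16.9% for OCT2, each above its whole list. With −log10 q over 5 it was 57.2% for MED1, 37.7% for EP300, 29.4% for OCA-B, 24.7% for OCT1 and 43.2% for OCT2, each above its list. The 5 switch flank peaks became 3 with −log10 q over 5 and 1 with a 5 kb flank. Added after seeing the data, the share of regions in 1 list was 33.6% with −log10 q over 5 (43.9% in the series) and 32.8% with peaks joined within 500 bp (40.5%), leaving out the contig gave 17.1% of regions in all 6 lists and 20.7% of strong OCA-B peaks without OCT2, and summits within 250 bp gave 23.3% of strong OCA-B peaks without OCT2 (8.55% in the list). Single libraries, capped pileups and a second assembly copy limit all these values.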
